A study of Bos taurus with 10 samples.

Results

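The mouse H2 loci and the genes of class I antigen presentation were taken from a table of 21130 gene rows as every row whose symbol starts with H2- and the rows named B2m, Tap1, Tap2, Tapbp, Tapbpl, Psmb8, Psmb9, Psmb10, Psme1, Psme2, Erap1, Nlrc5, Ciita and Cd74. The rule found 48 members, 34 of them H2- symbols, and it used no measured value. The table holds FPKM, a transcript level scaled for the length of the transcript and the fragments mapped in a library, for 10 RNA-seq libraries. The labels give 7 as muscle of cattle of genotype MSTN+/-, heterozygous at the gene for myostatin, which limits muscle growth, and 3 as muscle of wild type cattle, all 24 months old. The labels give no treatment and do not say how many animals were sampled.

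The contents did not match those labels. In 19415 rows the description named Mus musculus, as it did for 46 of the 48 members. The median of 12 skeletal muscle markers was 0.42 to 1.1 FPKM in the libraries labelled MSTN+/- and 0.135 to 0.38 FPKM in those labelled wild type. Their sum had another order, at 24.3 to 54.5 FPKM in the MSTN+/- libraries. It was 38.53, 166.75 and 135.44 FPKM in wild type replicates 1, 2 and 3. In replicates 2 and 3 most of it was Mylpf, at 154.6 and 125.2 FPKM. Wild type replicate 1 stood apart from replicates 2 and 3: the median of 9 pluripotent cell markers was 0.11 FPKM in replicate 1 but 233.8 and 202.4 FPKM in replicates 2 and 3, and 4.48 to 65.5 FPKM across the MSTN+/- libraries. Of these markers, Pou5f1 and Sox2 were high in the MSTN+/- libraries too, at 633 to 848 and 212 to 357 FPKM, where wild type replicates 2 and 3 had 345.6 and 533.4 FPKM of the first and 223.7 and 202.4 FPKM of the second. The summed level of 9 fibroblast markers was 5931 FPKM in wild type replicate 1 and 376.5 and 269.4 FPKM in replicates 2 and 3. It was 2746 to 5735 FPKM across the MSTN+/- libraries. These markers did not move together in wild type replicate 1. Col1a1, Pdgfra, Thy1, Postn and Fbln1 exceeded every MSTN+/- library there, and Col1a2 and Col3a1 fell inside the MSTN+/- range. Dcn (24.3 FPKM) and Lum (28.8 FPKM) lay below all MSTN+/- values, which started at 168.6 and 45.2 FPKM. Group names below are therefore those of the labels, no difference is attributed to MSTN or to cattle muscle, and results are given also without wild type replicate 1. FPKM totals ran from 402716 to 464418, and relative depth, read from the steps of low values, ran from 1 to 1.20.

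MHC class I molecules carry peptides of a cell's own proteins to its surface, where cytotoxic T cells and natural killer cells inspect them. Each is a heavy chain, encoded in the mouse by an H2 gene, paired with the light chain beta-2-microglobulin. The proteasome cuts the peptides, the TAP transporter moves them into the endoplasmic reticulum, and tapasin helps load them. Interferons are known to raise most genes of this pathway, partly through the transactivator NLRC5. Embryonic stem cells and other pluripotent cells are known for low class I levels. Class II molecules, which present peptides from outside the cell, are largely restricted to specialised antigen-presenting cells.

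Class I genes were far higher in the libraries labelled MSTN+/- than in those labelled wild type, from the light chain through both classical heavy chains, most Q and T loci, peptide transport and the immunoproteasome. Class II genes were low in both groups. Of the 48 members, 29 rose in the MSTN+/- libraries, 0 fell, 5 did not pass the test and 14 were not tested, by limma on log2(FPKM + 1) with Benjamini-Hochberg adjustment over 14047 genes and a threshold of 0.05. Across all genes tested the same fit called 31.8% higher and 12.8% lower. At an unadjusted limma p under 0.05 also 0 members fell. H2-M5 and H2-DMa had a negative change, with limma adjusted p of 0.182 and 0.721. A log2 change is the difference in mean log2(FPKM + 1), MSTN+/- minus wild type, and its median over the 34 tested members was 1.92, beside 0.17 over all genes tested. Only genes that reached 1 FPKM in 3 or more libraries were tested. Of the 34, 6 (H2-Q8, H2-Q9, H2-T9, H2-K2, H2-Ab1 and Nlrc5) met this through the MSTN+/- libraries alone. Among the called members, H2-Q6 and H2-DMb1 reached it in 1 wild type library, and H2-Q5, H2-Q7, H2-M3, Psmb8 and Psmb9 in 2. These too needed MSTN+/- libraries to be tested, while H2-Eb1, which reached it in 2 wild type libraries alone, was not tested. The filter thus favoured members high in the MSTN+/- libraries, and these counts describe the members and support nothing further. In 29 of the 48 members every MSTN+/- value lay above every wild type value, as was the case for 25.2% of all genes tested.

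The split of all calls depended on the scaling. With median-of-ratios scaling the median change of all genes was -0.00 and the higher calls made up 50.3% of all calls, in place of 71.3% as deposited. That share was 63.3% after rescaling to TPM and 46.9% after quantile normalization. The same 29 members were called higher under each of these scalings, and the median change over the tested members was 1.80, 1.88 and 1.62 with median-of-ratios, TPM and quantile scaling. H2-DMa, a chain of the class II peptide editor, was called lower after quantile normalization. In bulk RNA, fewer cells of a type and less RNA per cell cannot be told apart.

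**Figure D1:**
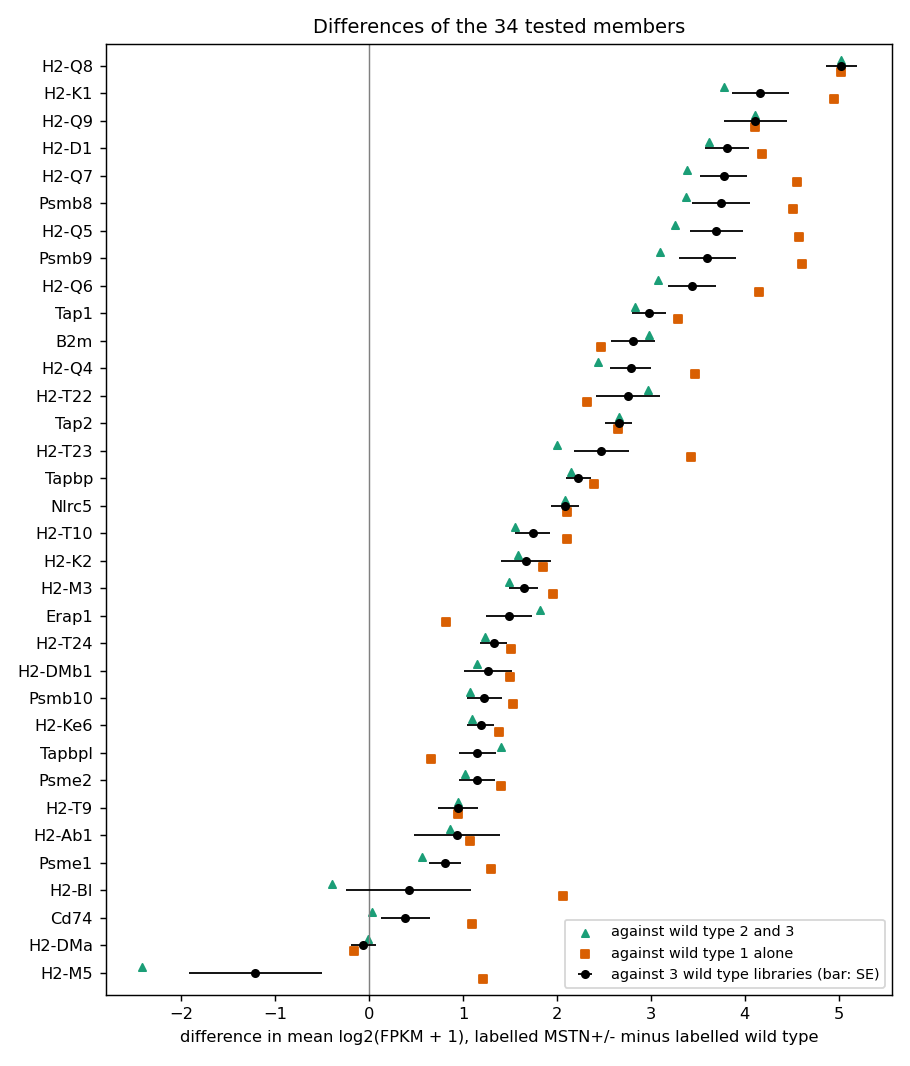
Differences in mean log2(FPKM + 1), labelled MSTN+/- minus labelled wild type, of the 34 tested members; circles with bars give the difference and its standard error against 3 wild type libraries, triangles against wild type replicates 2 and 3, and squares against replicate 1 alone. Most members lie to the right of 0 in all 3 sets, while H2-M5 lies at -2.42 against replicates 2 and 3 and at 1.21 against replicate 1.

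Without wild type replicate 1, 29 members rose and 1 fell, and the 29 were the same genes. In that fit 42.2% of all genes were called higher and 31.9% lower. With wild type replicate 1 as sole control, 29 members rose and 0 fell by limma (0 also at an unadjusted p under 0.05), in a fit that assumes that the single library varies like the 7. It called 33.7% of all genes higher and 10.8% lower, and it shared 28 of its 29 members with the fit to all libraries. In place of H2-T9 it called Cd74.

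B2m (gene 12010), the gene of the light chain that pairs with class I heavy chains, was the most abundant member. It stood at 1518 FPKM in the lowest, 2027 FPKM in the median and 2305 FPKM in the highest MSTN+/- library. In wild type replicates 1, 2 and 3 it was at 361.9, 372.3 and 171.6 FPKM. The groups were far apart, and within the wild type the third library was the low one. Its mean was 6.68 times higher in the MSTN+/- libraries (2018 ± 253.9 FPKM, SD, n = 7, against 301.9 ± 113 FPKM, n = 3), a log2 change of 2.81 ± 0.23 (SE) with a limma adjusted p of 1.109e-05. Ordered by level, B2m was between the 6th and the 14th gene of an MSTN+/- library, and the 153rd, 156th and 385th gene of the wild type libraries.

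The classical heavy chain genes H2-K1 and H2-D1 encode the molecules that present peptides to cytotoxic T cells. H2-D1 (gene 14964) was at 451 to 582.3 FPKM across the MSTN+/- libraries, with a median of 483.3 FPKM. In the wild type libraries it was at 26.3, 61.1 and 25.2 FPKM. Replicate 2 was thus the high wild type library, still well below every MSTN+/- value. The difference was 13.2-fold between group means (497 ± 43.1 against 37.5 ± 20.4 FPKM, SD, n = 7 and 3), with a log2 change of 3.81 ± 0.23 (SE) and a limma adjusted p of 1.465e-06. H2-K1 (gene 14972) was at 370.8 to 473.6 FPKM, median 391.1 FPKM, in the MSTN+/- libraries. Its wild type values were 11.97, 45.9 and 17.2 FPKM, again highest in replicate 2 and without overlap. The log2 change of H2-K1 was 4.17 ± 0.31 (SE; limma adjusted p = 5.175e-06), a 16.02-fold ratio of means. H2-L, a classical locus found in some mouse strains, reached 0.81 FPKM in wild type replicate 3, 0.18 FPKM in MSTN+/- replicate 2 and 0 in the other libraries.

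The balance of the classical chains moved less than their level. H2-K1 made up 42.4% to 46.4% of the summed H2-K1 and H2-D1 level in the MSTN+/- libraries, and 31.3%, 42.9% and 40.6% in wild type replicates 1, 2 and 3. Replicate 2 lay within the MSTN+/- range and replicates 1 and 3 below it.

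H2 loci are close copies of each other and vary between mouse strains, so fragments can be assigned to one locus in place of another, and the level of a single locus is uncertain. The annotation in the table pointed several loci to a shared best match: H2-D1 with H2-L, H2-Q5 with H2-Q7 and H2-Q9, H2-Q4 with H2-Q8, and H2-K2 with H2-Q10. Sums over loci are less exposed to this. Summed over the classical, Q, T and M loci, the heavy chain level was 1215 to 1529 FPKM across the MSTN+/- libraries (median 1249 FPKM). In wild type replicates 1, 2 and 3 the sum was 71.2, 192.6 and 97.3 FPKM. The MSTN+/- mean was thus 18.1, 6.70 and 13.3 times those libraries.

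**Figure D2:**
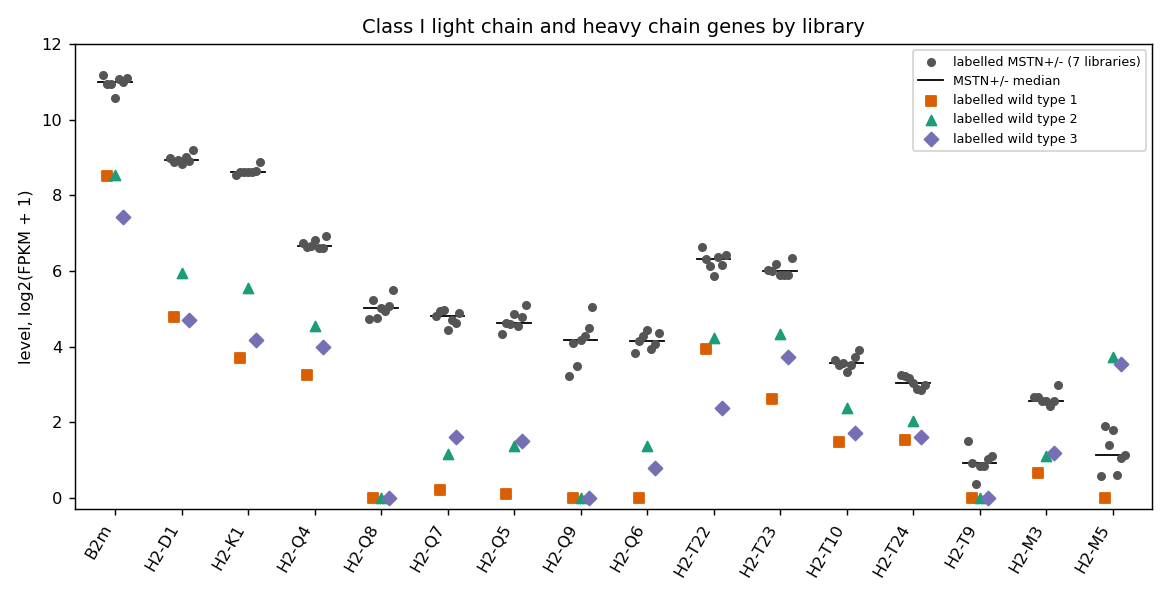
Level of the light chain gene B2m and of the class I heavy chain genes at 1 FPKM or more in some library, as log2(FPKM + 1); grey points are the 7 libraries labelled MSTN+/-, the line is their median, and coloured symbols are the 3 libraries labelled wild type. All 7 MSTN+/- values lie above the wild type values for every gene shown but H2-M5, in which wild type replicates 2 and 3 (12.3 and 10.6 FPKM) lie above them.

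The Q loci encode non-classical class I molecules, among them Qa-2, a lipid-anchored surface molecule of the mouse that comes from a group of near-identical Q genes. Of 9 Q loci, 6 rose and 3 were not tested. H2-Q4 (gene 15015) was the highest, at 95.9 to 120.4 FPKM across the MSTN+/- libraries with a median of 100.5 FPKM. In the wild type it was at 8.43, 22.2 and 15.0 FPKM, highest in replicate 2 and below every MSTN+/- value. The log2 change was 2.79 ± 0.22 (SE; limma adjusted p = 8.529e-06).

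H2-Q8 and H2-Q9 were listed at 0 in all 3 wild type libraries. H2-Q8 (gene 15019) was at 25.4 to 43.8 FPKM, median 31.6 FPKM, in the MSTN+/- libraries, with a limma adjusted p of 2.230e-08. H2-Q9 (gene 110558) was at 8.39 to 32.3 FPKM, median 17.1 FPKM, with a limma adjusted p of 1.009e-05. No fold is given against a listed 0. H2-Q8 and H2-Q9 passed the filter through the MSTN+/- libraries alone and had an SD of 0 in the wild type. Their p-values therefore support nothing further. H2-Q8 shares a best match with H2-Q4, and H2-Q9 with H2-Q5 and H2-Q7. Whether fragments were assigned to those loci in the wild type was not tested. Of 8750 genes at 5 FPKM or more in all 7 MSTN+/- libraries, 9 were at 0 in all 3 wild type libraries, and H2-Q8 and H2-Q9 were among them.

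H2-Q5, H2-Q6 and H2-Q7 were low but listed above 0 in wild type replicates 2 and 3. Here and below, the 3 values after "against" are those of wild type replicates 1, 2 and 3 in that order. H2-Q7 (gene 15018) was at 20.9 to 30.5 FPKM, median 26.9 FPKM, against 0.16, 1.25 and 2.03 FPKM. H2-Q5 (gene 15016), which the table describes as a non-coding RNA, was at 19.2 to 33.1 FPKM, median 23.6 FPKM, against 0.08, 1.58 and 1.84 FPKM. H2-Q6 (gene 110557) was at 13.2 to 20.6 FPKM, median 16.8 FPKM, against 0, 1.58 and 0.72 FPKM. In all 3 genes wild type replicate 1 was the lowest library. Their log2 changes were 3.78, 3.70 and 3.44, with limma adjusted p of 2.360e-06, 5.982e-06 and 5.127e-06. Summed over H2-Q5 to H2-Q9, the MSTN+/- level was 93.0 to 157.5 FPKM, beside 0.24, 4.41 and 4.59 FPKM in the wild type. Such a sum is less exposed to a swap among these copies. It leaves out H2-Q4, however, which shares a best match with H2-Q8. Over all Q loci, H2-Q4 included, the sum was 198.8 to 278.6 FPKM against 8.67, 27.7 and 20.4 FPKM. H2-Q1, H2-Q2 and H2-Q10 stayed under 1 FPKM in all 10 libraries, with highest values of 0.16, 0.55 and 0.60 FPKM.

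The T loci encode non-classical molecules with few alleles. Of 6, 5 rose and H2-T3, the thymus leukaemia antigen gene, was not tested, with a highest value of 0.82 FPKM in wild type replicate 3. H2-T22 (gene 15039), a ligand of some gamma-delta T cell receptors, was at 57.3 to 99.0 FPKM across the MSTN+/- libraries, median 78.3 FPKM. In wild type replicates 1, 2 and 3 it was at 14.4, 17.6 and 4.22 FPKM. Unlike the Q genes, it was lowest in replicate 3. The log2 change was 2.75 ± 0.34 (SE; limma adjusted p = 1.601e-04).

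H2-T23 (gene 15040) encodes Qa-1, the ligand of an inhibitory receptor of natural killer cells. Its MSTN+/- values ran from 58.0 to 79.7 FPKM, median 62.4 FPKM. Wild type values were 5.11, 19.3 and 12.3 FPKM. The groups did not overlap, and the log2 change was 2.47 ± 0.29 (SE; limma adjusted p = 1.269e-04). H2-T10 (gene 15024), a close relative of H2-T22, was at 9.06 to 14.1 FPKM, median 10.9 FPKM, against 1.81, 4.15 and 2.31 FPKM. H2-T24 (gene 15042) was at 6.18 to 8.51 FPKM, median 7.23 FPKM, against 1.91, 3.07 and 2.07 FPKM. These were smaller differences, of 1.74 and 1.33 on the log2 scale (limma adjusted p = 6.651e-05 and 7.464e-05).

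H2-T9 (gene 15051) was at 0.29 to 1.83 FPKM, median 0.89 FPKM, in the MSTN+/- libraries and listed at 0 in the wild type (limma adjusted p = 5.554e-03). It passed the filter through the MSTN+/- libraries alone, so this p-value supports nothing further. H2-T9 lies at the limit of what was tested: without MSTN+/- replicate 1, 6 or 7 it was not tested. Its call was lost with wild type replicate 1 as sole control (limma adjusted p = 0.0606) and with library weights (0.117), with 5.986e-04 to 0.117 over the alternatives. Summed with H2-T22, the highest T locus, it was at 58.1 to 100.9 FPKM against 14.4, 17.6 and 4.22 FPKM.

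Of 5 M loci, 1 rose, 1 did not pass the test and 3 were not tested, where 31.8% of all genes tested rose. H2-M3 (gene 14991), whose molecule presents N-formylated peptides of bacteria and mitochondria, was at 4.41 to 6.9 FPKM, median 4.9 FPKM, in the MSTN+/- libraries. In the wild type it was at 0.59, 1.14 and 1.27 FPKM, below all 7. The log2 change was 1.65 ± 0.15 (SE; limma adjusted p = 2.477e-05).

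H2-M5 (gene 240095) had the opposite order in 2 of the wild type libraries. It was at 0.49 to 2.75 FPKM, median 1.2 FPKM, in the MSTN+/- libraries, while wild type replicates 1, 2 and 3 had 0, 12.3 and 10.6 FPKM. Replicate 1 lay below every MSTN+/- library and replicates 2 and 3 above every one. Against all 3 the log2 change was -1.21 ± 0.71 (SE) with a limma adjusted p of 0.182. Without wild type replicate 1 it was -2.42 and passed the test (limma adjusted p = 1.103e-04), and against replicate 1 alone it was 1.21 (0.0741), with 1.103e-04 to 0.627 over the alternatives. The pluripotent cell markers were likewise high in replicates 2 and 3 and near 0 in replicate 1, and their part in the H2-M5 levels was not tested. H2-M2, H2-M9 and H2-M10.2 were under 1 FPKM in all libraries, with highest values of 0.47, 0.18 and 0.21 FPKM.

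The make-up of the heavy chain level differed between groups. Classical loci held 68.7% to 71.1% of the summed heavy chain FPKM across the MSTN+/- libraries, and 53.8%, 55.6% and 44.4% in wild type replicates 1, 2 and 3. T loci held 10.99% to 14.7%, against 33.0%, 22.99% and 22.3%. The classical share was therefore higher and the T share lower in every MSTN+/- library than in any wild type library. M loci held 0.404% to 0.663%, against 1.08%, 7.06% and 12.4%, and most of it in replicates 2 and 3 was H2-M5. The Q share, at 15.7% to 19.0% against 12.2%, 14.4% and 20.9%, lay on both sides. B2m was 1.25 to 1.82 times the summed heavy chains in the MSTN+/- libraries, 5.09 times in wild type replicate 1 and 1.93 and 1.76 times in replicates 2 and 3. No test was run on these shares and ratios.

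Class II genes were low in every library. The class II chains are made by antigen-presenting cells, and CIITA is their master transactivator. Ciita stayed at or below 0.04 FPKM in all 10 libraries. Summed without Cd74, the class II genes came to 3.83 to 13.8 FPKM across the MSTN+/- libraries, beside 2.2, 3.25 and 5.2 FPKM in the wild type. Heavy chain sums were 71.2 FPKM or more in the same libraries. Of 9 class II members, 1 rose, 3 did not pass the test and 5 were not tested, where 31.8% of all genes tested rose.

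H2-DMb1 (gene 14999), a chain of the peptide editor DM, was the member that rose. It was at 1.92 to 5.7 FPKM, median 3.64 FPKM, against 0.58, 0.79 and 1.26 FPKM. No values overlapped, and the log2 change was 1.26 ± 0.25 (SE; limma adjusted p = 3.004e-03). With library weights, which give less weight to libraries that vary more, it was 1.06 and missed the threshold (limma adjusted p = 0.0624), with 1.728e-03 to 0.0624 over the alternatives. H2-DMa (gene 14998), the partner chain, was at 0.74 to 1.11 FPKM, median 0.83 FPKM, against 1.11, 1.09 and 0.72 FPKM, and the groups overlapped (limma adjusted p = 0.721). After quantile normalization its change was -0.48 (limma adjusted p = 0.0302), with 0.0302 to 0.955 over the alternatives.

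Cd74 (gene 16149), the invariant chain that escorts new class II molecules, was at 0.88 to 2.27 FPKM, median 1.32 FPKM, in the MSTN+/- libraries. Wild type replicate 1 was at 0.08 FPKM and replicates 2 and 3 at 1.39 and 1.14 FPKM, within the MSTN+/- range. The log2 change was 0.38 ± 0.26 (SE; limma adjusted p = 0.248), and with wild type replicate 1 as sole control 1.09 (0.0171), with 0.0171 to 0.982 over the alternatives. H2-Ab1 (gene 14961), a classical class II beta chain, was at 0.38 to 5.98 FPKM, median 1.31 FPKM, against 0.23, 0.09 and 0.85 FPKM. These ranges overlapped, and the call missed the threshold (limma adjusted p = 0.121). H2-Eb1, the other beta chain seen above 1 FPKM, was at 0.25 to 0.78 FPKM, median 0.43 FPKM, against 0.17, 1.09 and 2.1 FPKM. It reached 1 FPKM in wild type replicates 2 and 3 alone and was not tested. H2-Aa, H2-Eb2, H2-Oa and the pseudogene H2-Ea-ps were under 1 FPKM throughout, with highest values of 0.65, 0.11, 0.19 and 0.12 FPKM.

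**Figure D3:**
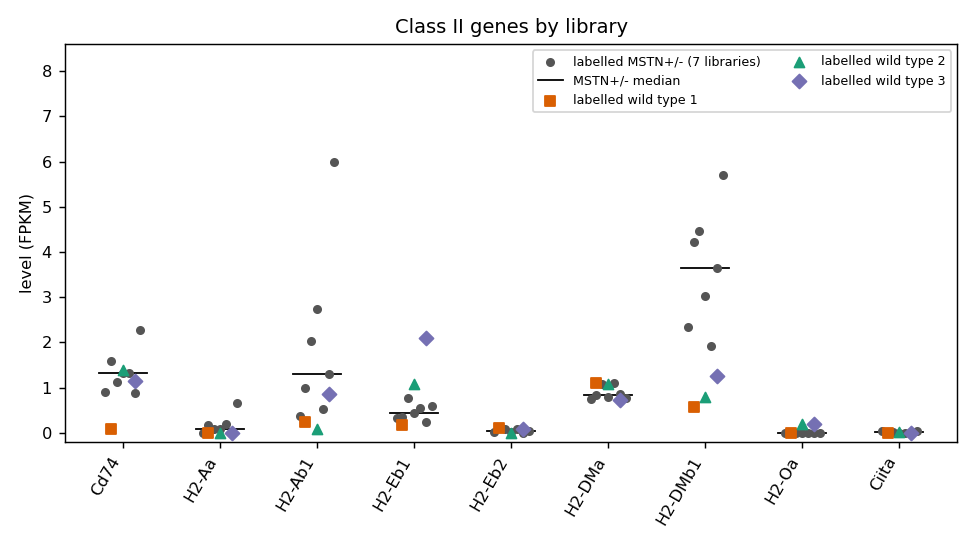
Level of class II genes and of Ciita in FPKM on a linear axis, with grey points for the 7 libraries labelled MSTN+/-, a line at their median and coloured symbols for the 3 libraries labelled wild type. No value passes 5.98 FPKM, and H2-DMb1 is the gene in which all 7 MSTN+/- values lie above all 3 wild type values.

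Some markers of white blood cells were detected. Of 15 leukocyte and antigen-presenting cell markers, 7 stayed under 1 FPKM in all libraries, and the defining genes Ptprc, Itgax and Aif1 reached at most 0.04, 0.03 and 0.12 FPKM. Others were present: the macrophage marker Cd68 was at 3.72 to 13.1 FPKM over all 10 libraries, and Csf1r and Itgam reached 1.51 and 1.48 FPKM. The summed level of the list was 35.2 to 67.2 FPKM across the MSTN+/- libraries and 25.9, 70.3 and 83.1 FPKM in wild type replicates 1, 2 and 3. Most of it was Laptm5, a lysosomal membrane gene, in all but wild type replicate 1. That library had the highest values of the macrophage genes Lyz2, Fcer1g and Tyrobp, 9.81, 3.63 and 1.64 FPKM. Lyz2 was not particular to it: wild type replicate 2 had 2.69 FPKM and replicate 3 had 3.54 FPKM. No MSTN+/- library passed 0.29 FPKM of Lyz2. Laptm5 and Cd68, in contrast, had their lowest wild type values in replicate 1, 3.48 and 4.64 FPKM.

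Peptide transport and loading genes all rose, 4 of 4. Tap1 and Tap2 encode the subunits of the transporter. Tap1 (gene 21354) was at 37.2 to 50.9 FPKM across the MSTN+/- libraries, median 46.1 FPKM, while wild type replicates 1, 2 and 3 had 3.59, 7.16 and 3.91 FPKM. Tap2 (gene 21355) was at 19.5 to 26.8 FPKM, median 21.5 FPKM, against 2.66, 3.55 and 1.9 FPKM. Both genes kept the groups wide apart, with log2 changes of 2.98 ± 0.18 and 2.66 ± 0.15 (SE; limma adjusted p = 1.181e-06 and 6.412e-07). Tapbp (gene 21356), the gene of tapasin, was at 99.3 to 124.1 FPKM, median 105.2 FPKM, against 19.9, 29.4 and 19.1 FPKM. Its log2 change was 2.23 ± 0.14 (SE; limma adjusted p = 1.260e-06).

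Tapbpl (gene 213233), the gene of the tapasin-related peptide editor TAPBPR, changed less. It was at 6.15 to 7.97 FPKM, median 7.07 FPKM, against 4.1, 2.93 and 1.35 FPKM. Here wild type replicate 1 was the highest wild type library and not replicate 2. The log2 change of 1.15 ± 0.20 (SE; limma adjusted p = 1.350e-03) was 0.66 against replicate 1 alone and 0.75 after quantile normalization, past the threshold in both.

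The immunoproteasome replaces the 3 catalytic subunits of the standard proteasome by Psmb8, Psmb9 and Psmb10, and all 3 rose. Psmb8 (gene 16913) was at 33.4 to 50.3 FPKM, median 39.7 FPKM, in the MSTN+/- libraries. Its wild type values were 0.76, 5.07 and 1.48 FPKM. Psmb9 (gene 16912) was at 16.9 to 27.4 FPKM, median 25.6 FPKM, against 0, 1.92 and 1.78 FPKM. Neither gene overlapped between groups, and the log2 changes were 3.75 ± 0.31 and 3.60 ± 0.30 (SE; limma adjusted p = 1.091e-05 and 1.329e-05). Psmb10 (gene 19171) had a higher wild type level, at 8.72, 14.5 and 10.4 FPKM, against 20.5 to 37.4 FPKM, median 26.5 FPKM. Its log2 change was 1.23 ± 0.19 (SE; limma adjusted p = 6.301e-04).

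The standard subunits that they replace did not rise. Psmb5, the partner of Psmb8, was at 77.0 to 111.8 FPKM across the MSTN+/- libraries against 94.8, 151.2 and 136.9 FPKM, with a log2 change of -0.34 (limma adjusted p = 0.109). Psmb6, the partner of Psmb9, was at 84.2 to 113.5 FPKM against 86.3, 193.1 and 180.5 FPKM, with a log2 change of -0.48 (limma adjusted p = 0.101). Psmb7, the partner of Psmb10, was at 77.0 to 111.4 FPKM against 98.8, 170.9 and 172.7 FPKM, and fell by 0.50 on the log2 scale (limma adjusted p = 0.0466). In each of the 3, wild type replicate 1 lay within the MSTN+/- range, and without it all 3 fell, while against it alone limma called 0 of them (0 also at an unadjusted p under 0.05) and the changes were 0.06, 0.26 and 0.03 (limma adjusted p = 0.799, 0.174 and 0.906). The call of Psmb7 was also lost without a low-value filter (limma adjusted p = 0.0602) and on leaving out any other single library.

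As a share of each pair, Psmb8 made up 24.1% to 34.3% of Psmb8 plus Psmb5 in the MSTN+/- libraries, and 0.796%, 3.24% and 1.07% in the wild type. Psmb9 made up 13.4% to 21.1% of Psmb9 plus Psmb6, against 0%, 0.985% and 0.977%. Psmb10 made up 18.7% to 25.2% of Psmb10 plus Psmb7, against 8.11%, 7.84% and 5.68%. In all 3 pairs the immunoproteasome subunit stayed the smaller part in every library, and every MSTN+/- share lay above every wild type share.

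**Figure D4:**
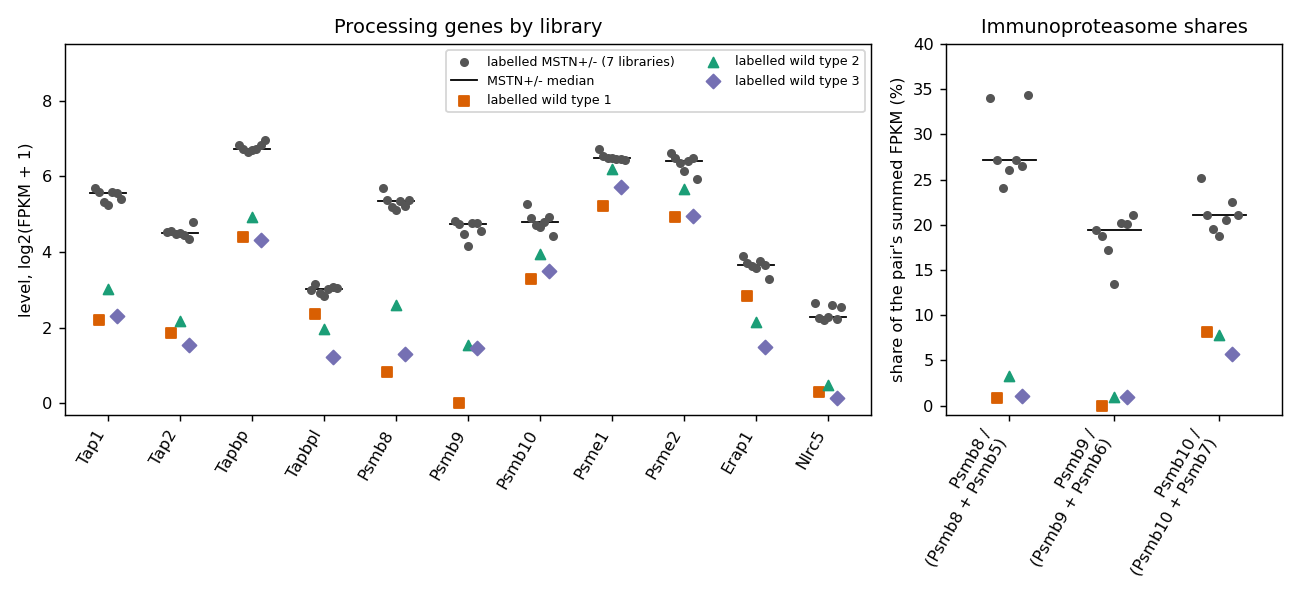
Left, level of the transport, proteasome, trimming and transactivator genes as log2(FPKM + 1); right, the immunoproteasome subunit's percentage of the summed FPKM of its pair; grey points are the 7 libraries labelled MSTN+/-, lines their median, and coloured symbols the 3 libraries labelled wild type. Every gene and share has the MSTN+/- libraries above the wild type, with a small gap in Psme1, at 86.2 FPKM against 71.7 FPKM, and in Psme2, at 59.8 FPKM against 49.8 FPKM.

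Psme1 and Psme2 encode the subunits of the proteasome activator PA28, and both rose. Psme1 (gene 19186) was at 86.2 to 105.1 FPKM, median 88.7 FPKM, against 36.3, 71.7 and 51.6 FPKM. Its log2 change of 0.81 ± 0.17 (SE; limma adjusted p = 4.099e-03) was the smallest of the 29 called, and 1.29 with wild type replicate 1 as sole control. Psme2 (gene 19188) was at 59.8 to 96.6 FPKM, median 83.1 FPKM, against 29.6, 49.8 and 30.2 FPKM, with a log2 change of 1.15 ± 0.19 (SE) and a limma adjusted p of 9.882e-04.

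Erap1 (gene 80898), the aminopeptidase that trims peptides in the endoplasmic reticulum, was at 8.79 to 13.7 FPKM, median 11.5 FPKM, against 6.09, 3.47 and 1.8 FPKM. Wild type replicate 1 was again the highest wild type library, as for Tapbpl. The log2 change was 1.49 ± 0.24 (SE; limma adjusted p = 8.595e-04), and 0.82 against replicate 1 alone, past the threshold. Nlrc5 (gene 434341), the transactivator of class I genes, was at 3.62 to 5.33 FPKM, median 3.83 FPKM, against 0.22, 0.39 and 0.11 FPKM. All 3 wild type values were under 1 FPKM, and the log2 change was 2.09 ± 0.15 (SE), with a limma adjusted p of 4.168e-06. Nlrc5 passed the filter through the MSTN+/- libraries alone, so its p-value supports nothing further.

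Of the 3 remaining H2- symbols, H2-Ke6 (gene 14979) encodes a steroid dehydrogenase and is no antigen-presenting gene, although it carries the prefix. It was at 15.3 to 22.5 FPKM, median 18.9 FPKM, against 6.6, 7.1 and 9.64 FPKM, with a log2 change of 1.19 ± 0.14 (SE) and a limma adjusted p of 1.484e-04. H2-K2 (gene 630499), described in the table as a non-coding RNA, was at 1.19 to 4.53 FPKM, median 2.52 FPKM, against 0, 0.16 and 0.24 FPKM, and rose (limma adjusted p = 7.106e-04). It passed the filter through the MSTN+/- libraries alone, so its p-value supports nothing further. H2-Bl (gene 14963), the blastocyst class I gene, was at 0.77 to 9.56 FPKM, median 2.95 FPKM, against 0, 7.04 and 2.74 FPKM. Its groups overlapped, and its log2 change of 0.42 ± 0.67 (SE; limma adjusted p = 0.621) was -0.40 without wild type replicate 1, not past the threshold in any alternative (0.0593 to 0.893).

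Among the MSTN+/- libraries, 28 members were at 1 FPKM or more in all 7. For 13 class I heavy chain genes the coefficient of variation (SD over mean) had a median of 14.1% and ran from 8.28% for H2-K1 to 44.8% for H2-Q9. For 12 processing and light chain genes and Nlrc5 together it had a median of 12.9%, from 7.43% to 19.3%. Over 12241 genes at 1 FPKM or more in all 7 libraries the median was 11.9%.

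The heavy chain and processing genes were not highest in the same library. Replicate 7 was the highest of the 7 in 9 of the 13 heavy chain genes, and its level lay 0.28 above the group median on the log2 scale (median over genes). Replicate 1 was the highest in 9 of the 12 processing genes and the lowest in 5 of the 13 heavy chain genes. Replicate 4 was the lowest in 5 of the processing genes and 4 of the heavy chain genes, B2m and Psmb9 among the first. Replicate 7 also had the highest fibroblast marker sum of the 7, 5735 FPKM, and replicate 4 the lowest, 2746 FPKM, with the highest pluripotent marker median, 65.5 FPKM. Replicates 1 and 5 had fibroblast marker sums of 4909 and 4688 FPKM, and replicate 5 the lowest pluripotent marker median, 4.48 FPKM. In the heavy chain genes replicates 1, 4 and 5 lay at 0.045, 0.0 and -0.068 relative to the group median on the log2 scale. The part of these markers in the order of the libraries was not tested.

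**Figure D5:**
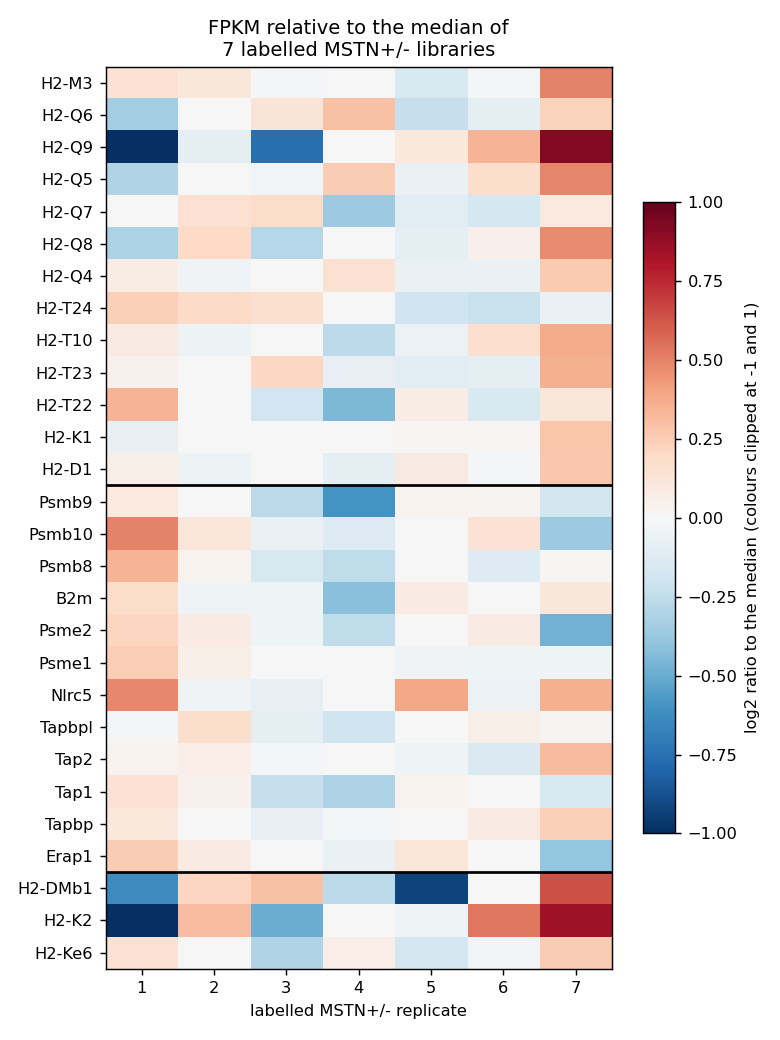
FPKM of the 28 members at 1 FPKM or more in all 7 libraries labelled MSTN+/-, as log2 of the ratio to the median of the 7; columns are libraries, and black lines separate heavy chain genes (top), processing, light chain and transactivator genes (middle) and other members (bottom). Replicate 7 is highest in 9 of the 13 genes at the top and replicate 1 in 9 of the 12 genes in the middle.

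The wild type libraries had an order of their own. Replicate 2 was the highest of the 3 in 9 of the 15 heavy chain genes at 1 FPKM or more in some library, and in 10 of the 12 processing genes. Of the 15, H2-Q8, H2-Q9 and H2-T9 were at 0 in all 3 wild type libraries and had no highest library. Replicate 1 was alone the lowest in 10 of the heavy chain genes. For the processing genes the lowest place was shared out, 6 genes in replicate 1 and 6 in replicate 3. Replicates 2 and 3, which both had high pluripotent marker levels, therefore differed from each other as well, with B2m at 372.3 and 171.6 FPKM and H2-K1 at 45.9 and 17.2 FPKM.

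Of 59 other genes of the pathway found in the table, 20 rose, 7 fell, 27 did not pass the test and 5 were not tested, with a median log2 change of 0.24. That is close to the 31.8% and 12.8% of all genes. Without wild type replicate 1 the counts were 29 and 15, and against it alone 16 and 8. Class I-like genes all rose, 4 of 4: Fcgrt, the neonatal Fc receptor, was at 25.8 to 58.8 FPKM against 7.91, 3.48 and 4.08 FPKM, and Hfe, a regulator of iron uptake, at 5.45 to 8.84 FPKM against 1.34, 0.99 and 0.35 FPKM. Their log2 changes were 2.48 and 2.12. Both chains pair with beta-2-microglobulin.

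Among the 5 loading chaperones the calls depended on the wild type library. Against all 3 libraries limma called 0 of them higher (0 also at an unadjusted p under 0.05) and 1 lower, beside 31.8% and 12.8% of all genes tested. Without wild type replicate 1 it called 2 higher and 1 lower, beside 42.2% and 31.9% of all genes tested. Against replicate 1 alone the median log2 change of the chaperones was -0.74, beside 0.26 over all genes tested. The 1 that fell against all 3 was Canx, the gene of calnexin, which fell by 0.44 on the log2 scale, from 209.5, 155 and 151.5 FPKM in the wild type to 105.2 to 138.5 FPKM (limma adjusted p = 0.0183). That call was lost with quantile normalization (limma adjusted p = 0.0814) and with library weights (0.193), with 2.550e-03 to 0.193 over the alternatives. Of 7 cytosolic or endoplasmic reticulum peptidases limma called 0 in either direction against all 3 wild type libraries, and 0 had an unadjusted p under 0.05. Without wild type replicate 1, however, 2 of them fell, beside 31.9% of all genes tested. Against replicate 1 alone the median log2 change of the peptidases was 0.10, beside 0.26 over all genes tested. Psme4, another proteasome activator, was at 24.9 to 34.6 FPKM against 29.2, 67.9 and 66.2 FPKM and fell by 0.70 (limma adjusted p = 0.0337), but its change with wild type replicate 1 as sole control was 0.08 (0.695), with 1.351e-05 to 0.695 over the alternatives. The call of Psme4 was also lost on leaving out any 1 of MSTN+/- replicates 1, 2, 3, 6 and 7 and wild type replicates 2 and 3.

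Of 11 genes of the interferon gamma axis 5 rose and of 6 of the type I interferon axis 3 rose, where 31.8% of all genes tested did. Without wild type replicate 1, 8 genes of the first axis rose and 1 fell, and against it alone 3 rose and 1 fell. For the second axis 3 and 4 rose in those fits. Irf9 and Stat2, transcription factors of the type I response, were at 35.1 to 48.9 and 34.3 to 48.4 FPKM, against 6.72, 16.9 and 12.2 FPKM and 3.66, 19.5 and 10.2 FPKM. In both genes wild type replicate 2 was the highest wild type library and replicate 1 the lowest, without overlap with the MSTN+/- values. Irf2 was at 12.7 to 14.6 FPKM against 7.79, 1.57 and 0.60 FPKM, and its log2 change of 2.15 was 0.74 with wild type replicate 1 as sole control. The interferon genes on the list were near 0: Ifng was at most 0.08 FPKM and Ifnb1 at most 0.14 FPKM in any library. Other interferon genes were not on the list and were not looked up.

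Of the 7 enhanceosome genes, whose proteins bind class I and class II promoters, 2 rose and 3 fell, beside 31.8% and 12.8% of all genes tested. Without wild type replicate 1, 2 rose and 4 fell, and against it alone 3 rose and all 3 falls were lost (0 fell by limma, and 1 had a negative change at an unadjusted p under 0.05). Rfx5 was at 9.06 to 10.1 FPKM against 4.98, 5.51 and 4.83 FPKM, and Rfxap at 6.47 to 8.04 FPKM against 3.53, 1.61 and 2.37 FPKM, log2 changes of 0.77 and 1.28. Among the class II processing genes 4 of 7 rose, 6 without wild type replicate 1 and 1 against it alone, where 31.8%, 42.2% and 33.7% of all genes tested did. The 1 that rose in all 3 fits was Ifi30, a thiol reductase of the lysosome, at 62.7 to 89.4 FPKM against 47.0, 46.1 and 51.4 FPKM. The protease gene Ctsd was at 370.3 to 436.3 FPKM against 374.4, 212 and 202.8 FPKM. The log2 change of Ctsd was 0.66, and 0.10 with wild type replicate 1 as sole control (limma adjusted p = 0.475); the call was also lost without wild type replicate 2 or 3 (0.0627 for both) and with median-of-ratios scaling (0.0928). Rela, an NF-kappaB subunit, was at 36.2 to 44.9 FPKM against 35.8, 15.8 and 14.8 FPKM, a log2 change of 1.01 that was 0.22 against replicate 1 alone (limma adjusted p = 0.167).

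Ligands of the natural killer cell receptor NKG2D moved in both directions. Ulbp1 was at 0.54 to 1.34 FPKM against 3.7, 2.27 and 2.09 FPKM, and fell by 0.91 on the log2 scale (limma adjusted p = 4.742e-03), a call lost with library weights (0.103). Raet1d was at 2.81 to 4.11 FPKM against 4.23, 1.0 and 0.51 FPKM, and rose by 0.85 (limma adjusted p = 0.0470), which turned to -0.21 with wild type replicate 1 as sole control (0.327). The call of Raet1d was also lost with median-of-ratios, TPM and quantile scaling (limma adjusted p = 0.116, 0.0731 and 0.279), without a low-value filter (0.0689), and on leaving out any single library but wild type replicate 1.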

How the data were processed

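FPKM values for 10 libraries (7 labelled MSTN+/-, 3 labelled wild type) were deposited by the authors with 2 decimals, as FPKM per the file headers. Per the labels' protocols, RNA was extracted from frozen tissue with Trizol and sequenced from Illumina libraries. The sources used here name no aligner, counting tool, genome build or annotation. Counts were not analysed here, so depth is unknown apart from relative depth, and no count test was run. Groups came from the genotype label, and replicate numbers, given in record order, only name a library. The labels do not say whether libraries came from separate animals, so p-values measure the spread between libraries, which may be technical.

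The fit used limma 3.58.1 under R 4.3.3 (linear model with a trended prior, 8 residual degrees of freedom, no covariate) on log2(FPKM + 1) for 14047 genes that reached 1 FPKM in 3 or more libraries. Benjamini-Hochberg adjustment covered all of these genes, with a threshold of 0.05. A fold change on this scale understates the change of low genes. The procedure was tested on simulated data in which all libraries varied alike around a gene's level. Wild type replicate 1 stood apart in the data themselves, so that test does not bear on the calls given here. Tables and figures were made with Python 3.11.15, pandas 2.3.3 and matplotlib 3.10.9.

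Members, roles, 60 other pathway genes (59 found in the table) and marker lists were chosen with earlier results of these data known. All members are described. Of the other pathway genes, up to 2 per role were named, those called with the smallest p (1 such gene and 1 marker are not reported here), and with them Psmb5 and Psmb6, the partners of 2 members. The alternatives were 3 scalings (median-of-ratios, TPM, quantile), library weights (whose estimation stopped before it converged), robust empirical Bayes, a pseudocount of 0.1, a filter at a mean of 5 FPKM or none, leaving out each library, and wild type replicate 1 as sole control. The table gives no coordinates, and no sequences were used here.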

Additional observations from a re-analysis of the deposited data

Results flagged for a closer look

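Within the 7 libraries labelled MSTN+/-, single values were compared with Dixon's 95% critical value for 7 samples, over 49 groups, of which 8 exceeded it. Chance exceeds it in about 1 of 20 groups.

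MSTN+/- replicate 7 was the high library in 7 of the 8. H2-K1 was at 473.6 FPKM there, against 395.3 FPKM in the next library. H2-M3 was at 6.9 FPKM, with 5.41 FPKM next. Tap2 was at 26.8 FPKM, with 22.5 FPKM next. The class II beta chain gene H2-Ab1 was at 5.98 FPKM, with 2.75 FPKM next. Of the sums, the classical class I level was 1056 FPKM (907 FPKM next), the Q locus level 278.6 FPKM (231.2 FPKM next) and the whole heavy chain level 1529 FPKM (1276 FPKM next). The sums and H2-K1 share their genes and are not separate observations.

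MSTN+/- replicate 1 stood out in Psme1, a subunit gene of the proteasome activator, at 105.1 FPKM against 92.2 FPKM in the next library.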

How the results depend on the processing

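The count of members that rose was 27 to 29 in all alternatives but the filter at a mean of 5 FPKM, where 24 were tested and 24 rose. It was 29, the same genes, under 3 other scalings, a pseudocount of 0.1, no low-value filter and robust empirical Bayes. In place of 0 members that fell, 1 fell with quantile normalization (H2-DMa), 1 without a low-value filter (H2-Oa) and 1 with library weights (H2-M5), and leaving out single libraries gave 0 to 1 (H2-M5 without wild type replicate 1). Other pathway genes that fell, 7 as reported, were 16 with median-of-ratios scaling, 12 after TPM rescaling and 11 with library weights, and 4 to 15 on leaving out single libraries, with the 15 without wild type replicate 1. Genes of the whole table that fell, 1800 as reported, were 3230 with median-of-ratios scaling, 3491 with quantile normalization and 3368 with library weights, and 791 to 4449 on leaving out single libraries: without wild type replicates 1, 2 and 3 they were 4449, 793 and 791. Of the named genes, direction turned for H2-Bl without wild type replicate 1 (-0.40, and -0.40 to 1.11 over single libraries left out), for H2-DMa with library weights (0.10), and, where wild type replicate 1 was the sole control, for H2-M5 (1.21), Psmb7 (0.029), Psme4 (0.082), Raet1d (-0.21), Psmb5 (0.061) and Psmb6 (0.26). The cause was not tested. No paired analysis was possible because the labels give no replicate numbers that the groups share. FPKM without counts gives no counting error, and near-identical H2 loci can exchange fragments, so single loci under a few FPKM are the least certain values.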
